A study of Mus musculus with 2 samples.

Results

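The cytosolic ribosomal protein genes encode the proteins that, with ribosomal RNA, build the large and the small subunit of the ribosome outside mitochondria. They were taken by symbol: Rpl or Rps followed by a digit, plus Rpsa, Rplp0, Rplp1 and Rplp2, without the Rps6k kinases and without rows named as pseudogenes. Of 55357 genes in the matrices, 94 met this rule, 55 named for the large and 39 for the small subunit. They comprise 77 core genes (46 large, 31 small), 16 paralogues or retrotransposed copies of a core gene, and Rps19bp1, which encodes a binding partner of the Rps19 protein and no subunit of the ribosome. A further 322 rows named as pseudogenes were left out.

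Single-cell RNA sequencing covered cells positive for CD45 and CD11b, sorted from the cerebral cortex of mice aged 8 weeks. A single library came from wild-type mice and a single library from Msn knockout mice, each from 5 to 6 pooled animals. Msn encodes moesin, a protein that links actin to the cell membrane. The design text names C57BL/6 for the knockout mice. The labels state neither which part of Msn was removed, nor the sex of the mice, nor the strain of the wild-type mice. With 1 library per genotype no test was possible: the 95% intervals below describe the error of counting UMIs alone, so variation among mice, sorts and libraries is outside them.

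Ribosomal protein mRNAs are among the most abundant messages of most cells, and their products are needed in equal numbers, because a ribosome holds nearly all of them as single copies. Most of these mRNAs begin with a C followed by a run of pyrimidines, the TOP motif, through which mTORC1 and the RNA-binding protein Larp1 adjust their translation and stability together. Resting microglia, the resident macrophages of the brain, are surveying cells with little division.

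Pyrimidine runs near the start of the gene are shown first because they were more frequent among core genes than among other measured genes. In the reference genome GRCm39, windows of 50 bases before and 50 bases from the annotated start of each gene's canonical GENCODE M39 transcript were searched on the sense strand for runs of at least 8 letters made of C and T only. Such a run stood in 44 of 77 core genes (57.1%) and in 33.3% of 8619 measured genes outside the set. On the opposite strand the shares were 23.4% for core genes and 35.4% for the others. The stretches below are 30 bases each, 5′ to 3′ on the gene's strand, with the longest run of the window in capitals, or the first of those where lengths tie; any further run is in lower case. They were chosen as the core gene highest relative to wild-type that holds a run, the core gene lowest relative to wild-type, the most abundant stalk protein gene, and 2 pairs of a core gene and its paralogue.
Rpl38 (chr11:114559394-114559423, plus strand): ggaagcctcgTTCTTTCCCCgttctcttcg
Rpl4 (chr9:64080638-64080667, plus strand): tacaagtgacaagTCTTTCCTTTTCCTgtg
Rplp1 (chr9:61821893-61821922, minus strand): gacgcgCCTCCTCTCggttttggccctgcc
Rpl22 (chr4:152410136-152410165, plus strand): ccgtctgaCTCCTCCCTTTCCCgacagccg
Rpl22l1 (chr3:28859570-28859599, plus strand): catatccggttccgagttgcgtatttcgca
Rps27 (chr3:90120939-90120968, minus strand): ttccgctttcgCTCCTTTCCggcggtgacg
Rps27l (chr9:66853335-66853364, plus strand): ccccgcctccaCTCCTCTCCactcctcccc
The run of Rpl22 spans the annotated start, from 6 bases before it to 8 bases into the transcript. That of Rpl4 lies 34 to 47 bases into it, and that of Rplp1 lies 36 to 44 bases before it, so annotated starts and runs do not coincide in every gene. The window of Rpl22l1, the paralogue of Rpl22, held no such run, and neither did those of the core genes Rps29, Rpl36 and Rps19. Among the 17 members that are not core genes, 47.1% held a run on the sense strand and 47.1% on the opposite strand.

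The wild-type library held 68576464 UMIs (unique molecular identifiers, each counting 1 captured mRNA) in 5842 barcodes and the knockout library 67575835 in 9038. After barcodes with under 500 genes or over 10% mitochondrially encoded UMIs were set aside, 5577 and 7573 cells were kept. Of 13 barcode sequences that occurred in both libraries, 12 were kept in both. A cell entered a gate with at least 2 UMIs of that gate and at most 1 UMI of every other gate. The gate genes were P2ry12 for microglia, Mrc1 for border macrophages and Nkg7 for NK cells. For monocytes the UMIs of Ace and Ly6c2 were summed, so 1 UMI of each was enough. The microglia gate held 4765 wild-type and 4721 knockout cells, the monocyte gate 44 and 537, the border macrophage gate 30 and 84, and the NK gate 0 and 54. The 10 microglia markers summed to 24262 and 23230 CPM (UMIs per 1000000 UMIs) in the microglia gates and to between 883 and 3888 CPM in the other gates, and the markers of each other class were highest in its own gate. The knockout monocyte gate also held neutrophil markers at 3739 CPM and choroid plexus markers at 681 CPM, against 121 and 0 CPM in the wild-type monocyte gate. B cell markers summed to 336 (wild-type) and 310 CPM (knockout) in the border macrophage gates, against 186 and 197 CPM in the microglia gates. Among them Cd79a stood at 67.3 and 64.4 CPM in the former and 1.15 and 6.01 CPM in the latter. Msn was at 320 CPM (wild-type) and 20.6 CPM (knockout) in microglia-gated cells. UMIs were counted near the 3′ end of mRNAs, so levels were not divided by transcript length, and the order of genes by CPM is given as a description.

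Ribosomal protein genes took a larger share of the UMIs in the knockout library, and the share differed still more between cell classes. In the microglia gate they made up 4.73% of all UMIs (4.73 to 4.74) in wild-type cells and 6.99% (6.983 to 6.999) in knockout cells, a log2 ratio of 0.56 (0.56 to 0.56). In the border macrophage gate the shares were 8.71% and 10.3%, a log2 ratio of 0.24 (0.21 to 0.27). In the monocyte gate they were 14.3% and 17.2%, a log2 ratio of 0.26 (0.25 to 0.28). NK-gated cells of the knockout library had 21.0% (20.8 to 21.2). Markers of some other cell types were also higher in the knockout microglia gate. The 10 monocyte markers, all detected in both libraries, summed to 48.5 and 132 CPM, with Plac8 at 5.45 and 38.8 CPM. The 5 erythroid markers summed to 98.9 and 222 CPM, and the 4 of choroid plexus and ependyma to 1.30 and 13.8 CPM, with Tmem212 at 0 in both. The 5 neutrophil markers summed to 357 and 399 CPM, and among them S100a8 stood at 7.72 and 90.5 CPM. With a second microglia marker needed and cells rich in S100a8, S100a9 or Ttr left out, 4761 and 4702 cells remained and the log2 ratio of the share was again 0.56; the part of the other markers was not tested. The order from microglia through border macrophages to monocytes held in both libraries, with a gap between neighbours larger than counting error.

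**Figure D1:**
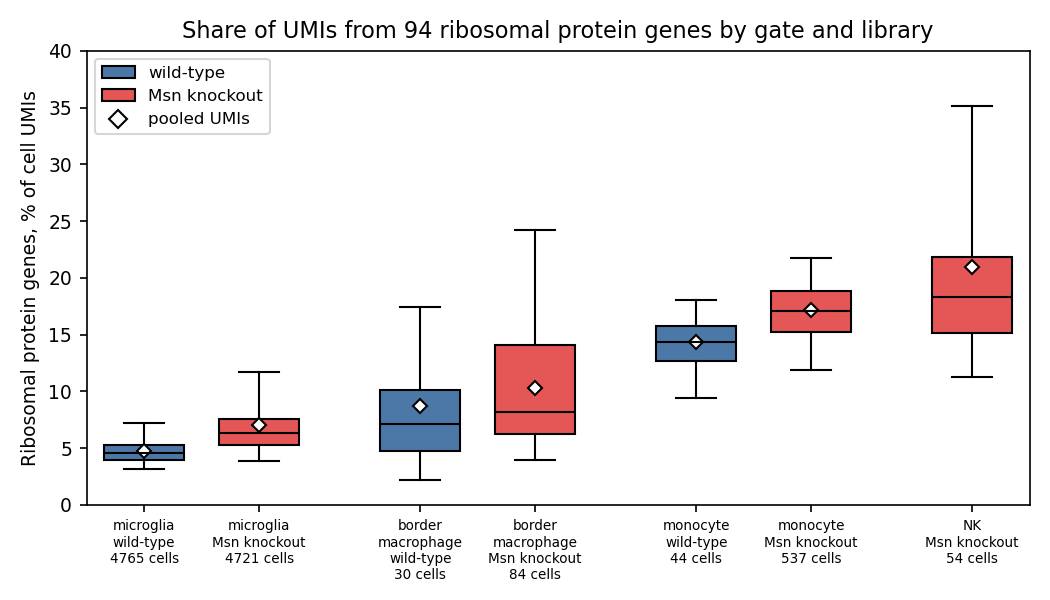
Share of each cell's UMIs from the 94 ribosomal protein genes, in percent, by gate and library (boxes: quartiles with the median, whiskers: percentiles 5 and 95 over cells, diamonds: UMIs pooled over cells). Microglia-gated cells sit lowest, with medians of 4.56% and 6.30%, and NK-gated cells highest, with a median of 18.3%.

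Cells of a gate varied widely. In the wild-type microglia gate the share per cell ran from 0.347% through a median of 4.56% to 25.5%, and in the knockout from 0.761% through 6.30% to 34.3%. The ranges overlapped, yet 4202 of 4721 knockout cells (89.0%) lay above the wild-type median. Over 10% of UMIs came from ribosomal protein genes in 50 wild-type microglia-gated cells (1.05%) and in 393 knockout cells (8.32%). Large and small subunit shares moved together from cell to cell, with Pearson's r of 0.925 over 4765 wild-type and 0.961 over 4721 knockout cells. These are descriptions over cells that share a library and whose 2 shares have the same denominator.

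The number of ribosomal protein UMIs per cell was close in the libraries while the total was not. The median microglia-gated cell held 356 (wild-type) and 366 (knockout) of these UMIs, against a median of 6895 and 5695 UMIs in all. Its mitochondrially encoded share was 1.41% and 0.470%. Within every range of depth examined the knockout share was the higher: pooled values ran from 4.41% to 5.06% over 7 depth ranges for wild-type cells and from 6.35% to 7.70% over the same ranges for knockout cells. Among cells with 4000 to 8000 UMIs the log2 ratio was 0.42. The part that depth and mitochondrial share have in the difference was not tested further, and a difference between the genotypes cannot be told apart from a difference between the libraries.

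Genes of the large subunit stood further apart between the libraries than those of the small subunit. In the microglia gate large subunit genes took 2.60% and 3.92% of UMIs (log2 ratio 0.59, 0.59 to 0.60), and small subunit genes 2.13% and 3.07% (log2 ratio 0.53, 0.52 to 0.53). The large-to-small ratio was therefore 1.22 (1.22 to 1.22) for wild-type cells and 1.28 (1.27 to 1.28) for knockout cells. It was 1.09 and 1.16 in the monocyte gates, 1.12 and 1.21 in the border macrophage gates, and 1.26 in knockout NK-gated cells, so that the higher value fell to the knockout library in each of the 3 gates with cells in both. All 3 of these comparisons rest on the same pair of libraries. Within knockout monocyte-gated cells the ratio was 1.105 (1.096 to 1.114) where UMIs of Ace alone passed and 1.21 (1.20 to 1.22) where those of Ly6c2 alone did, with 281 and 101 cells. The wild-type monocyte gate held 16 and 20 such cells, so the 1.09 and 1.16 above compare unlike mixtures. Where Ly6c2 alone passed, the wild-type ratio was 1.13 (1.11 to 1.16) over 20 cells, while the 16 cells with Ace alone were too few for a value.

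Individual core genes spanned a wide range of levels in CPM. In wild-type microglia-gated cells they ran from 74.4 CPM for Rpl24 through a median of 562.7 CPM to 1891 CPM for Rps29, and in the knockout from 110 CPM for Rpl13a through 824.3 CPM to 2539 CPM for Rplp1. The order of the 77 genes was much alike in the libraries, with Spearman's rho of 0.92 over genes, which are no independent replicates. Reads that match a pseudogene as well can be left out of the counts, and genes differed in their pseudogene rows, with 0 for Rpl24 and 24 for Rpl31. What this adds to the range was not tested, so CPM need not rank mRNA abundance between genes. Core genes supplied 98.0% of the ribosomal protein UMIs of wild-type cells and 98.1% of those of knockout cells. Among the 10 most abundant were Rps29, Rplp1, Rps24, Rps21, Rps12, Rpl37, Rpl23, Rps9 and Rps27a, the last of which encodes a fusion of ubiquitin and a small subunit protein. The 10 together gave 23.6% and 24.6% of the ribosomal protein UMIs.

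The leading pair changed places between the libraries. Rps29, a small zinc-binding protein of the small subunit, stood at 1891 CPM in wild-type and 2162 CPM in knockout microglia-gated cells. Rplp1, a protein of the stalk that recruits translation factors to the large subunit, stood at 1415 and 2539 CPM. Rps29 was thus first among wild-type cells and Rplp1 first among knockout cells.

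**Figure D2:**
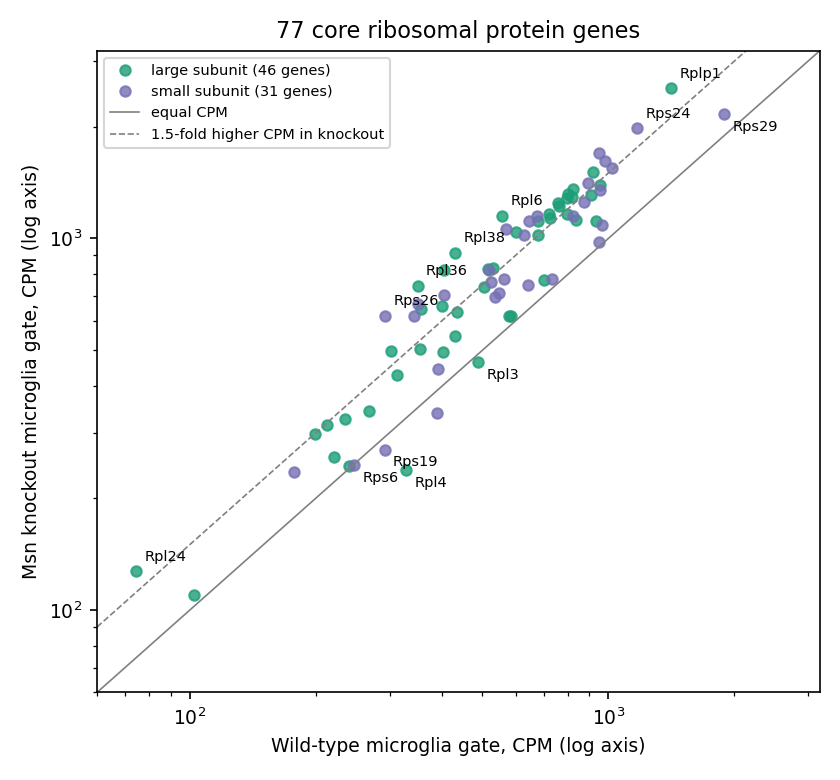
Level of each of the 77 core genes in the microglia gate, in CPM on log axes, wild-type against knockout, coloured by subunit. Most points lie above the line of equal CPM, and 5 genes lie below it, Rpl4 farthest at 329 and 238 CPM.

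Gene by gene, 72 of 77 core genes had a higher CPM in knockout than in wild-type microglia-gated cells. Since the median log2 ratio of all 8716 measured genes (10 CPM or more in at least 1 library) was -0.30, gene ratios are given relative to that median, and a gene was called at 1.5-fold or more. Of 86 measured members, 62 were called higher, while 15.2% of all measured genes were, and 0 were called lower, while 12.2% of all genes were. No test lies behind these calls. On the plain CPM scale 40 members were higher, against 4.70% of all genes, and 1 was lower, against 30.4%. The lower member was Rps27rt, a retrotransposed copy of Rps27. Core genes alone gave 59 of 77 higher, 37 of 46 for the large and 22 of 31 for the small subunit, with a median relative log2 ratio of 0.86 against 0 for all genes.

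The highest core gene was Rpl36, a large subunit protein, at 350 CPM in wild-type and 746 CPM in knockout microglia-gated cells, a relative log2 ratio of 1.39 (1.36 to 1.42). Rpl38, a large subunit protein known for a role in translating certain Hox mRNAs, stood at 431 and 915 CPM, a relative log2 ratio of 1.38. Rps26, which contacts mRNA at the exit of the small subunit's channel, stood at 293 and 619 CPM, also at 1.38. Rpl6 (557 and 1152 CPM) and Rpl18 (404 and 824 CPM), both of the large subunit, followed at 1.34 and 1.32. Rps2, which lines the mRNA entry channel, reached 1.22, and Rps28, close to the exit of that channel, 1.19. On the plain CPM scale the smallest log2 ratio among these 7 genes was 0.90, that of Rps28.

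At the other end Rpl4, which lines the tunnel through which the new protein leaves the ribosome, was the only core gene below the median of all genes. Its levels were 329 CPM (wild-type) and 238 CPM (knockout), a relative log2 ratio of -0.17 (-0.21 to -0.13). Rps19, a small subunit protein whose variants cause Diamond-Blackfan anaemia in humans, stood at 292 and 270 CPM (0.18). Rpl3, which reaches towards the catalytic centre, stood at 489 and 465 CPM (0.22), and Rps6, the substrate of the S6 kinases, at 247 and 246 CPM (0.29). Rpl27, with 240 and 244 CPM, was at 0.33. Of these 5 genes, Rpl4, Rps19 and Rpl3 were lower in CPM in the knockout library, and Rps6 and Rpl27 differed by less than counting error.

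**Figure D3:**
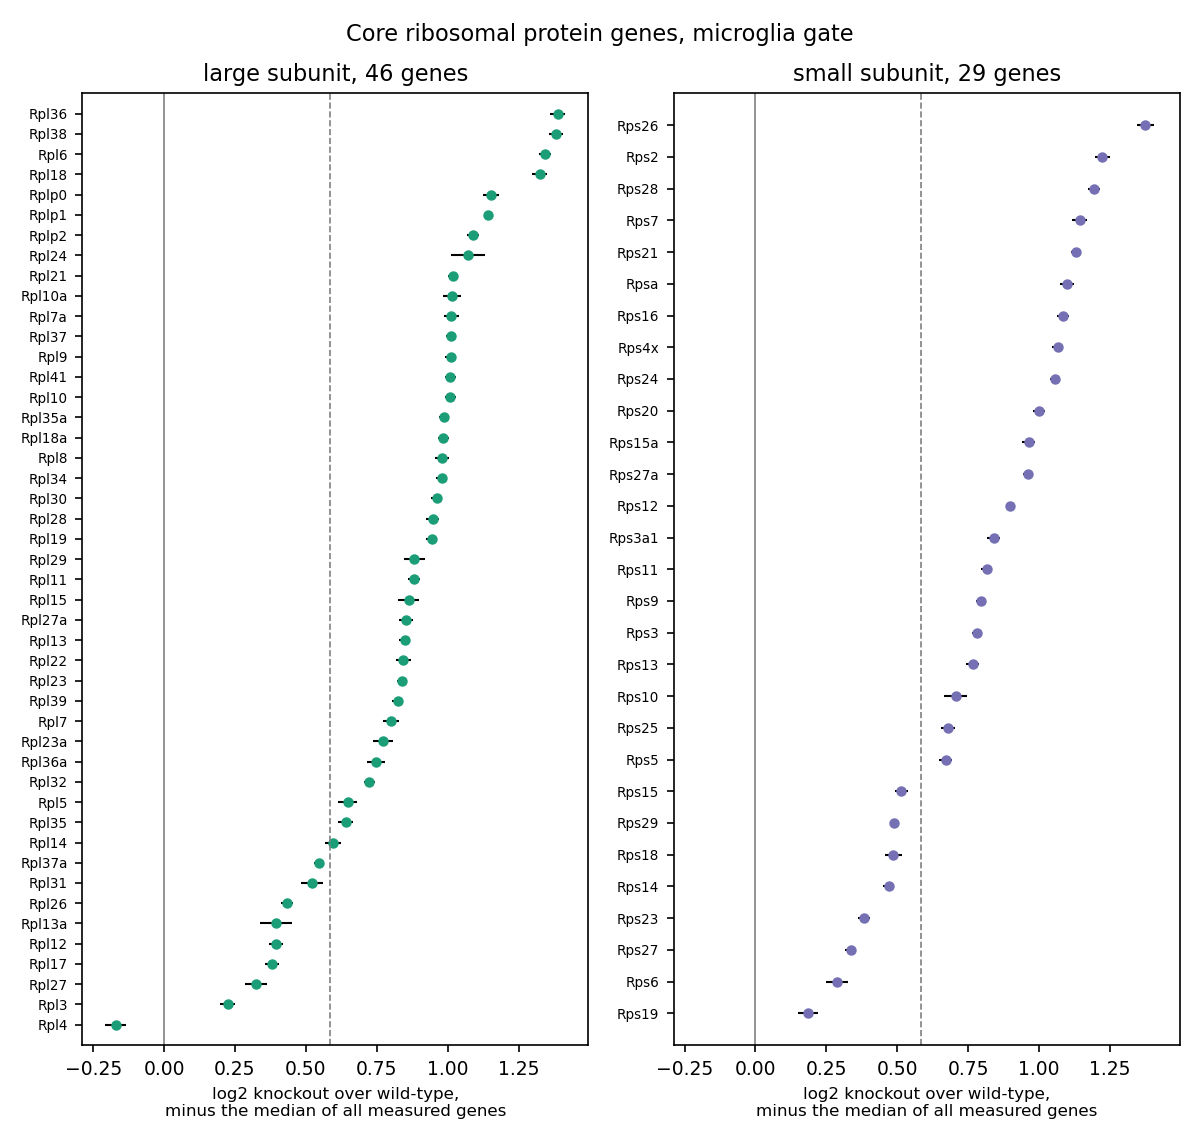
Relative log2 ratio, knockout over wild-type, of the core genes in the microglia gate (75 of 77 shown), large subunit on the left and small on the right (points: value, lines: exact 95% interval for counting error, dashed line: the 1.5-fold call). The genes spread continuously from -0.17 (Rpl4) to 1.39 (Rpl36).

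The 3 stalk protein genes lay close to each other. Rplp0, the base of the stalk, stood at 356 and 645 CPM (relative log2 ratio 1.15), Rplp1 at 1.14, and Rplp2, which pairs with Rplp1, at 601 and 1042 CPM (1.09). Rpsa, a small subunit protein also described as a laminin receptor precursor, stood at 404 and 705 CPM (1.098). The pyrimidine run did not sort the genes: the 44 core genes with a run had a median of 0.89 and the 33 without of 0.84. Rpl38 near the top and Rpl4 at the bottom both hold one.

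The transcript length of a gene moved with its ratio outside the set, which bears on how the count of core genes reads. These strata were chosen after the values had been seen, by the length of the canonical transcript. Among measured genes outside the set, the median relative log2 ratio was 0.65 below 1000 bases, 0.46 from 1000 to 2000, 0.08 from 2000 to 4000 and -0.32 from 4000 bases on. In the same strata core ribosomal protein genes had medians of 0.85 (36 genes), 0.84 (29 genes), 0.94 (9 genes) and 0.96 (3 genes). Below 1000 bases 75% of core genes were called higher against 56.6% of other genes, and against 80.9% of the 131 other short genes at 100 CPM or more (median 0.78). The share of short core genes called higher was therefore not above that of other short, abundant genes. From 1000 to 2000 bases the shares were 75.9% for core genes and 51.8% for other genes at 100 CPM or more. From 2000 to 4000 bases they were 88.9% (9 core genes) and 23.3%, and from 4000 bases on 66.7% (3 core genes) and 4.53%.

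In the smaller gates, with all cells of a gate pooled, the same libraries gave smaller differences. In the monocyte gate 35 of 87 measured members were called higher in the knockout library, while 20.6% of all measured genes were, and 1, Rpl4, was called lower, while 23.3% of all genes were. On the plain CPM scale 13 were higher and 2 lower, against 13% and 31.9% of all genes, so that the count of higher members was near that of all genes on this scale. Rpl4 stood at 713 and 407 CPM there. The highest with a count above 3 UMIs in both libraries were Rpl3l (below), Rps2 at 822 and 1679 CPM (1.24) and Rps3a3 at 681 and 1316 CPM (1.16). In the border macrophage gate 32 of 85 (37.6%) were called higher, near the 30.6% of all genes, and 1, Rps19bp1, lower, while 29.9% of all genes were. Plain CPM gave 14 higher and 1 lower members there, against 25.1% and 37.3% of all genes. The wild-type gates hold 44 and 30 cells, and the 3 comparisons share their libraries. The mix of cells within these gates differed between the libraries too. Ace alone passed in 16 wild-type and 281 knockout monocyte-gated cells, and Ly6c2 alone in 20 and 101. Border macrophage gates differed in their part of cells with antigen presentation genes (below). What these mixes contribute was not tested.

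Compared within a library, monocyte-gated cells gave ribosomal protein genes 3.03 times the share of microglia-gated cells in the wild-type (log2 ratio 1.60, 1.58 to 1.61) and 2.46 times in the knockout library (1.30, 1.29 to 1.30). Under the same stricter selection, an alternative added once values were known, the knockout value was 1.31. All 77 core genes were above the median of all genes in either library, with medians of 2.04 and 1.66. Of 87 measured members, 84 were called higher in the wild-type library, while 32.3% of all measured genes were, and 82 in the knockout library, while 31.2% were. Border macrophage-gated cells had log2 ratios of the share of 0.88 (0.85 to 0.91) and 0.56 (0.54 to 0.57), with 77 of 86 and 49 of 85 members called higher, against 28.0% and 22.8% of all genes. NK-gated cells had a log2 ratio of 1.59 (1.57 to 1.60), with 83 of 86 members called higher, against 33.4%. Median depths per cell were 7439 and 5546 UMIs for monocyte, 4352 and 4281 for border macrophage and 4586 for NK-gated cells.

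Within the border macrophage gate the share split with the genes of antigen presentation. The split, made after the values had been seen, took cells with over 1% of UMIs from H2-Aa, H2-Ab1, H2-Eb1 and Cd74. In the wild-type library the 9 cells above had a median ribosomal protein share of 11.5% and the 21 others of 6.18%. In the knockout library the 12 cells above had a median of 18.8% and the 72 others of 7.77%. Ranges overlapped in both libraries. This gate also held B cell markers, and whether the cells above the limit were border macrophages or another cell type was not tested. The cells above were 9 of 30 in the wild-type gate and 12 of 84 in the knockout gate. Values pooled over this gate therefore compare unlike mixtures of cells between the libraries, and the part of this mix was not tested.

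The mixture of ribosomal protein mRNAs also differed between classes. To set the total aside, each gene's share of the ribosomal protein UMIs was compared between gates. Rps19 held a larger part of it in monocyte-gated than in microglia-gated cells, by a log2 ratio of 0.88 among wild-type cells and 0.98 among knockout cells. Its level there was 1622 and 1315 CPM, against 292 and 270 CPM in microglia-gated cells. Rplp0 (0.65 and 0.52), Rpsa (0.55 and 0.70) and Rpl38 (0.57 and 0.47) were also above. Rplp1 held a smaller part, by -1.17 and -1.15, although its stalk partner Rplp0 held a larger one. Rpl12, which sits at the base of the stalk, was at -0.71 and -0.72.

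Over the 77 core genes, 33 held a larger and 34 a smaller part in monocyte-gated cells in both libraries, and 10 differed in sign. The log2 values of the libraries, which share no cells, had a Pearson's r of 0.94 and a Spearman's rho of 0.92 over genes. In border macrophage-gated cells 26 were above, 30 below and 21 of differing sign, with r of 0.72. There Rpl36 (0.72 and 0.34) came first among wild-type cells and Rpl38 (0.40 and 0.53) among knockout cells, and Rpl4 was lowest of the core genes at -0.70 and -0.45. In NK-gated cells of the knockout library Rpsa (0.71), Rpl36 (0.70) and Rpl38 (0.65) were highest, and Rps29 (-1.005) and Rpl4 (-0.72) lowest of the core genes. Rps29 stood at 3233 CPM in NK-gated cells, below its 3758 CPM in knockout monocyte-gated cells, where the whole set held a smaller share.

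**Figure D4:**
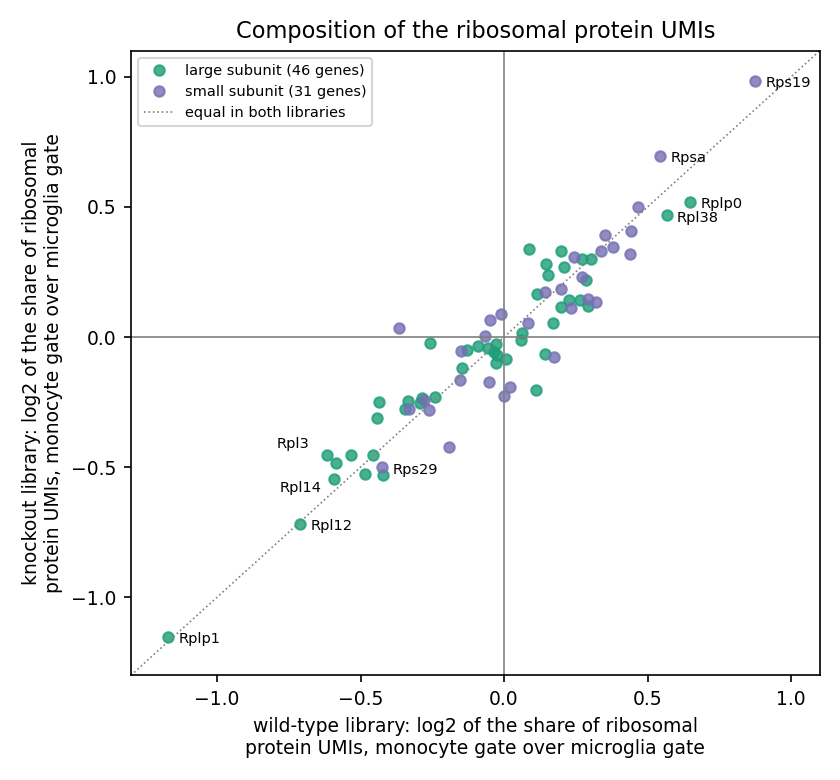
Each core gene's share of the ribosomal protein UMIs, monocyte gate over microglia gate, as a log2 ratio, in the wild-type library (horizontal) and the knockout library (vertical). Rps19 lies at the upper right (0.88 and 0.98) and Rplp1 at the lower left (-1.17 and -1.15), and most points lie near the line of equal values.

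Paralogues supplied 1.90% of the ribosomal protein UMIs in wild-type and 1.87% in knockout microglia-gated cells. Of 16, 8 were measured there and 2 were called higher, Rps3a3 and Rpl36al, on either scale, while 15.2% of all measured genes were on the relative scale and 4.70% on the CPM scale. Rps3a3, a copy of Rps3a1, stood at 195 and 457 CPM (relative log2 ratio 1.52, the highest of all measured members), against 524 and 764 CPM (0.84) for Rps3a1. Reads of near-identical copies can be left out of the counts or assigned to the wrong copy. Values of Rps3a3, Rps27rt, Rpl37rt and Rps4l are therefore uncertain. Core genes with many pseudogene rows, such as Rpl31 with 24 and Rpl21 with 15, can be affected too. The size of this effect was not tested. Rpl36al stood at 117 and 185 CPM (0.96), Rps27l at 102 and 124 CPM (0.57), and Rpl37rt at 11.1 and 9.56 CPM (0.08).

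Several paralogues did not follow their core gene across classes. Rpl22l1 stood at 327 and 381 CPM in microglia-gated and at 365 and 387 CPM in monocyte-gated cells, while Rpl22 stood at 434 and 634 CPM in the former and 1369 and 1547 CPM in the latter. Rpl22l1 was higher in NK-gated cells, at 767 CPM. Rpl7l1, whose relative Rpl7 is the structural protein, was at 82.1 and 84.1 CPM in microglia-gated but 69.0 and 57.3 CPM in monocyte-gated cells. Rps4l was at 41.2 and 48.8 CPM in microglia-gated but 25.9 and 21.95 CPM in monocyte-gated cells. The wild-type monocyte values of Rpl7l1 and Rps4l rest on 44 cells and few UMIs. Their distance from the microglia values lay within counting error in that library. Rps27l, a paralogue of Rps27 known as a p53 target, stood at 299 and 276 CPM in monocyte-gated cells and so was nearer to the whole set.

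Rpl3l, the paralogue of Rpl3 known from heart and skeletal muscle, was detected mainly in monocyte-gated cells. In the microglia gate it had 2 UMIs in the wild-type (0.038 CPM) and 47 in the knockout (1.20 CPM), a relative log2 ratio of 5.30 with a counting interval of 3.36 to 8.38. In the monocyte gate it had 4 UMIs (11.5 CPM, 3.13 to 29.4) and 209 UMIs (63.7 CPM, 55.4 to 73.0). Of the wild-type UMIs, 3 came from the 16 cells where Ace alone passed and 0 from the 20 where Ly6c2 alone did. The knockout gate held 281 and 101 such cells, so the 2 monocyte levels are of unlike mixtures of cells. The knockout UMIs came from 151 of 537 monocyte-gated cells (median depth 5546 UMIs), against 40 of 4721 microglia-gated cells (5695 UMIs) and 0 of 54 NK-gated cells (4586 UMIs). Within the knockout monocyte gate the level was 78.7 CPM (64.7 to 94.7) where Ace alone passed and 4.84 CPM (1.32 to 12.4) where Ly6c2 alone did. Msrb1, a methionine sulfoxide reductase gene on the same strand, starts 494 bases beyond the end of Rpl3l on chromosome 17, and it stood at 1700 CPM and 1555 CPM in the same 2 sets of cells. Across gates Msrb1 stood at 17.2 (wild-type) and 49.6 CPM (knockout) in microglia-gated and at 995 and 1726 CPM in monocyte-gated cells. It stood at 59.9 CPM in knockout NK-gated cells. Whether reads from the neighbourhood of Msrb1 were counted for Rpl3l was not tested.

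**Figure D5:**
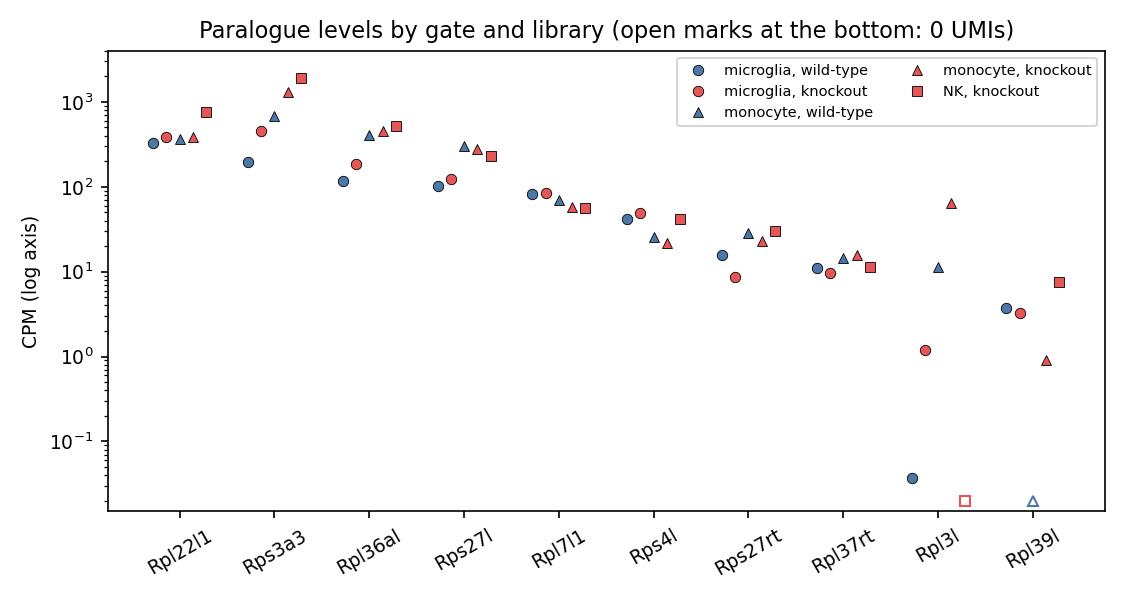
Level of 10 paralogues in CPM on a log axis, in the microglia and monocyte gates of both libraries and the NK gate of the knockout library, with open marks at the bottom for 0 UMIs. Rpl3l lies far apart between the microglia and monocyte gates, at 0.038 and 11.5 CPM in the wild-type library (2 and 4 UMIs) and at 1.20 and 63.7 CPM in the knockout library.

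Most of the remaining members had few UMIs. Rpl6l had 137 and 121 UMIs in the microglia gates, Rpl39l, known from testis, 197 and 127, Rps3a2 15 and 3, and Rpl32l 9 and 6. Rps12l1 had 4 and 0 and Rps23rg1 1 and 0. Rpl10l, a testis paralogue of Rpl10 on the X chromosome, had 0 in both, which allows up to 0.056 CPM for wild-type and 0.077 CPM for knockout cells (3 UMIs). Rps19bp1, no ribosomal subunit, was better covered, at 37.3 and 46.3 CPM (relative log2 ratio 0.61, and 0.31 on the CPM scale, where it was not called).

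Ribosomal proteins whose symbols lie outside the rule were set beside the set. Fau, which encodes a fusion of a ubiquitin-like protein with a small subunit protein, stood at 1465 and 2982 CPM in the microglia gates (relative log2 ratio 1.32). Rack1, a scaffold on the small subunit, stood at 441 and 478 CPM (0.41). Fau thus stood between Rps29 and Rplp1 in wild-type cells and above every member in knockout cells.

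Other genes of translation gave lower medians than the core ribosomal protein genes. Their counts of calls are read against 15.2% higher and 12.2% lower of all measured genes on the relative scale, and 4.70% and 30.4% on the CPM scale. Of 21 translation factors and other mRNAs known for the TOP motif, 8 were called higher and 0 lower, with a median of 0.44, while plain CPM gave 2 in either direction. Eif3f led at 137 and 251 CPM (1.17), followed by Eif3k (0.92) and Naca (0.77), and Eif4a2 was lowest at 353 and 219 CPM (-0.39), below Hnrnpa1 (-0.32) and Eif2s3x (-0.13). Of 36 measured genes of ribosome biogenesis, 5 were called higher and 1 lower, with a median of 0.14, a share of higher genes near that of all genes. Plain CPM gave 2 higher and 3 lower genes. Nop16 (1.00), Nop10 (0.93) and Nhp2 (0.76), the latter pair of the H/ACA particles, were highest, and Polr1a, the largest subunit of RNA polymerase I, was lowest at 37.9 and 20.3 CPM (-0.60), with Tsr1 (-0.47) and Mybbp1a (-0.39) above it. Thus the share of ribosomal protein mRNAs and the levels of ribosome assembly genes did not differ by the same amount between the libraries.

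Of 19 measured genes of mTORC1 and translation control, 2 were called higher and 2 lower, with a median of -0.15, both shares near those of all genes. Plain CPM gave 1 higher and 7 lower genes. Ddit4, an inhibitor of mTORC1, stood at 27.5 and 96.5 CPM (2.11), Eif4ebp1, a repressor of cap-dependent initiation, at 40.7 and 51.2 CPM (0.63), and Max at 0.51. Mtor, the kinase itself, stood at 22.1 and 11.4 CPM (-0.66), Tsc1 at 32.8 and 16.9 CPM (-0.66) and Rptor at -0.57. Of 12 measured genes of ribosome quality control, 3 were called higher and 0 lower, with a median of 0.16, while plain CPM gave 3 in either direction. Ubb (1.44) and Hspa8 (1.40) were highest, and Abce1 (-0.52), Ltn1 (-0.50) and Nemf (-0.31) lowest. Of 77 measured mitochondrial ribosomal protein genes, 40 were called higher and 0 lower, with a median of 0.60, whereas plain CPM gave 6 higher and 0 lower genes. Mrpl28 led at 1.15 and Mrps2 was lowest at -0.27. The median of the mitochondrial set thus lay between that of the core cytosolic set and that of all genes. Short genes outside the cytosolic set were high as well. Their median was 0.65 below 1000 bases, with 56.6% called higher, and 0.46 from 1000 to 2000 bases. None of the lists of this and the preceding paragraph was set against genes of like length.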

How the data were processed

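The deposited matrices hold UMI counts per gene and barcode, made by the authors with Cell Ranger (version 7.0.0 per the file headers, 6.0 per the labels' protocols) on GRCm39. The deposited counts still include barcodes below the 500 genes that the labels' protocols name as a filter. Here a barcode was kept with 500 genes or more and no more than 10% mitochondrially encoded UMIs, and gated on raw UMIs. No doublet caller was run; cells with over 1 UMI of a second gate were left out, and an alternative left out the 6% deepest cells. UMIs were summed per gate and library and divided by their total (CPM). Gates with under 20 cells gave no value. Genes were called by size, 1.5-fold relative to the median log2 ratio of genes that reach 10 CPM in either group. Intervals were exact (Poisson, conditional or binomial, 95%), except that of the large-to-small log2 ratio between libraries, which was a normal approximation. The calling was tested on simulated counts with known changes and counting error alone. That test does not cover variation between libraries. Named genes were the 10 most abundant members, the 8 highest and 8 lowest by ratio, the 5 highest and 5 lowest per class, all paralogues, and the 3 highest and 3 lowest of each other list; a few of these genes are not reported here, and other genes were named after their values were seen. Members and lists were chosen with earlier results of these data known. Coordinates came from GENCODE M39; all 94 identifiers matched. Python 3.11.15, numpy 2.4.6, scipy 1.17.1, pandas 2.3.3 and matplotlib 3.10.9 were used.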

Additional observations from a re-analysis of the deposited data

Results flagged for a closer look

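Rps19bp1 lay in opposite directions in 2 gates: its relative log2 ratio, knockout over wild-type, was 0.61 in the microglia gate and -1.44 in the border macrophage gate, past the 1.5-fold call in both. The microglia value was not past it on the CPM scale (0.31) or with a floor of 30 CPM on the genes that set the median (0.53), and stayed past it under the other 11 of 13 alternatives. The difference was not tested, and the border macrophage values rest on 11 and 9 UMIs.

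Cells in no gate were used in no comparison above. Ribosomal protein genes made up 5.03% of the UMIs of 738 such wild-type cells and 9.58% of those of 2177 such knockout cells, at median depths of 12071 and 3908 UMIs.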

How the results depend on the processing

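No paired analysis was possible because each genotype has 1 library. In all alternatives that gave a value, the share of ribosomal protein UMIs stayed higher in the knockout microglia gate and in every other gate than in the microglia gate of its library. In the order knockout over wild-type microglia, monocyte over microglia (wild-type, then knockout library), border macrophage over microglia (likewise), and NK over microglia, the log2 ratios outside the counting interval of the main value were these. Gates at 1 UMI with the others at 0 gave 0.55 for microglia, 1.56 for wild-type monocytes and 0.84 for knockout border macrophages. Gates at 3 UMIs gave 0.55 for microglia, 1.32 for knockout monocytes, 0.82 and 0.44 for border macrophages and 1.49 for NK cells. At least 1000 genes per cell gave 0.56, 1.31 for knockout monocytes and 0.49 for knockout border macrophages. At most 5% mitochondrial UMIs gave 1.61 for wild-type monocytes and 0.92 for wild-type border macrophages. Without the 6% deepest cells the values were 0.53, 1.32 for knockout monocytes, 0.58 for knockout border macrophages and 1.61 for NK cells. Cells with 4000 to 8000 UMIs gave 0.42, 1.51 and 1.38, 0.62 for knockout border macrophages and 1.80 for NK cells. Equal weight per cell gave 0.51, 1.58 and 1.31, 0.80 and 0.63, and 1.53. Leaving out mitochondrial UMIs gave 0.55. A second marker, an alternative chosen after seeing the data that also leaves out cells rich in S100a8, S100a9 or Ttr, gave 1.31 for knockout monocytes. The log2 of the large-to-small ratio, 0.067 in the main setting, was 0.073 without the deepest cells, 0.085 at 4000 to 8000 UMIs and 0.078 with equal weight. The count of members called higher, 62, was 40 on the CPM scale, and the count called lower was 1 on the CPM scale and 1 without a floor on low genes. Wild-type border macrophages fell under 20 cells with gates at 1 UMI and with 4000 to 8000 UMIs, so that those values were not run. Of 26 named members past the 1.5-fold call, 21 stayed past it under all 13 alternatives. Counting error was larger in the gates with few cells than in the microglia gates.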
